A study of Mus musculus with 26 samples.

Results

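The amino acid transporter families Slc1a, Slc3a, Slc6a, Slc7a, Slc36a, Slc38a and Slc43a were described in the mouse mammary gland at pregnancy day 12 and lactation day 9. Members were the genes whose symbol begins with one of these family names followed by a number, taken from probe sets annotated with 1 symbol. The rule took 63 of 18193 genes on the array, measured by 125 of 45037 tested probe sets. Of these, 60 are carriers, and the other 3 (Slc7a6os, Slc36a1os and Slc6a19os) are named only for lying opposite a carrier and were kept out of the counts. The carriers comprise 20 members of Slc6a, 15 of Slc7a, 9 of Slc38a, 7 of Slc1a, 4 of Slc36a, 3 of Slc43a and 2 of Slc3a. Where a gene had several probe sets, the one of highest mean on the 26 arrays stands for it. Frozen inguinal glands of 26 mice were hybridised to Affymetrix arrays, with 1 array per mouse. CBA/CaH and QSi5 mice were sampled in pregnancy (5 arrays each) and in lactation (3 each). At lactation there were also 10 mice of an Advanced Intercross Line (AIL), the generation 14 of a CBA/CaH by QSi5 cross, of which 5 carry the code AC and 5 the code AQ. The labels do not say what these codes stand for, and give neither the age nor the litter of any mouse, so p-values measure the spread between these arrays. Values are log2 expression values from RMA, a summary of the probes of a probe set, and differences are in log2 units.

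A lactating gland draws amino acids from blood to build milk protein. Essential amino acids must all be imported, while non-essential ones can be imported or made in the cell. Many carriers of the Slc7a family are light chains that work only when bound to a heavy chain of the Slc3a family, and most of these pairs exchange one amino acid for another. Sodium-coupled carriers of the Slc38a and Slc1a families load the cell with glutamine, alanine, serine or glutamate, which the exchangers can then trade for leucine and other large neutral amino acids. Cells short of amino acids raise the factor ATF4, which binds amino acid response elements in genes of this kind, and milk protein genes are driven by STAT5.

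Stretches of promoters are shown for the carriers in which a sequence for ATF4 was found upstream of the start. This factor was chosen because ATF4 itself and its targets Asns and Trib3 were higher at lactation (values below). The amino acid response list that holds these genes moved in both directions, however, and Cebpb, another factor of the response, was lower. Whether ATF4 acts on these carriers was not tested. The letters TGATGNAAN, searched on both strands in RefSeq windows from 250 bases before to 50 bases after each gene start (GRCm38.p6), occurred in 4 of the 43 carriers with a window (9.3%), against 4.5% of 27025 genes. The 4 carriers were Slc1a4, Slc6a21, Slc7a7 and Slc7a11, and each was called higher at lactation in both strains, as were 24 of all 60 carriers and 26.5% of genes. In Slc1a4 the match begins 5 bases before the start and runs across it, so it is not printed. Capitals mark the matches, each stretch reads 5′ to 3′ along the gene's own strand, and Slc7a11 and Slc7a7 lie on the minus strand and Slc6a21 on the plus strand. Slc7a7 has several annotated starts, and its 2 printed matches lie before different starts, the first 243 bases before one and the other 141 bases before another. The first match also runs across the latter start.
Slc7a11, chr3:50443640-50443699: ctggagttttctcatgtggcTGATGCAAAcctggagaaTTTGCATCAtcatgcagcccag
Slc7a7, chr14:54417893-54417952: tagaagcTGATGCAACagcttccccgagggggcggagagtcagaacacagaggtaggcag
Slc7a7, chr14:54418046-54418105: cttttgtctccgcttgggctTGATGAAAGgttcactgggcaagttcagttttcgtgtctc
Slc6a21, chr7:45282813-45282872: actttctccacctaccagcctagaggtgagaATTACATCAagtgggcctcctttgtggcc
The Slc7a11 stretch holds 2 matches, one on each strand. The letters TTCNNNGAA of STAT5 occurred in 4 of 43 carriers (9.3%), against 9.55% of genes: in Slc1a3, Slc7a1, Slc7a11 and Slc38a9. At lactation Slc7a11 was called higher in both strains, and Slc1a3 was called in neither. By their brightest probe sets Slc38a9 was called higher in QSi5 and Slc7a1 lower in both strains. The probe sets of Slc38a9 and of Slc7a1 did not move together, so no direction is given (below). A match is a description of these letters and not of a bound site.

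Array medians ran from 4.996 to 5.297 and were higher in parental lactation (5.255 or more) than in pregnancy (5.143 or less). The secretory state of the gland was plain, as milk secretion genes averaged 10.84 to 12.54 in pregnancy and 14.11 to 14.30 in lactation. In 7 arrays a marker list of another tissue or the Gapdh 3′ minus 5′ value lay over 1 log2 unit above the group median, among them CBA/CaH pregnancy arrays 3 and 5 (brown fat), QSi5 pregnancy arrays 3 and 5 (muscle) and QSi5 lactation array 2 (B and plasma cells). QSi5 pregnancy array 4 was another, with a Gapdh value of 6.50, against 1.20 to 1.74 on the other QSi5 pregnancy arrays. Whole glands were measured, and lists of cell type markers moved in both directions. In CBA/CaH 10 of 12 luminal epithelial, 8 of 10 fibroblast, 7 of 10 white adipocyte and 6 of 10 macrophage markers were called lower. In QSi5 these counts were 11, 7, 3 and 5. The white adipocyte marker Lpl and the macrophage marker Itgam were called higher in both strains. The fibroblast marker Fbln1 was called higher in QSi5. Of all genes 29.5% were called lower in CBA/CaH and 32.7% in QSi5, and of genes with a mean of 7 or more over the parental arrays 54.5% and 57.9%. Of lymphocyte markers, 4 of 9 for B and plasma cells and 4 of 9 for T and NK cells were called higher in CBA/CaH. The rest of them were not called there. In QSi5 9 and 6 were called higher. Of all genes 30.4% and 33% were called higher, and of genes with a mean of 5 to 7 37% and 39.1%. Fewer cells of a type and less RNA per cell cannot be told apart, and the part of these shifts in the results for carriers was not tested.

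Between pregnancy and lactation more carriers rose than fell in both strains. A gene was called at an adjusted p under 0.05 (limma, Benjamini-Hochberg over all tested probe sets). In CBA/CaH 29 of 60 carriers were called higher at lactation, against 30.4% of all genes, and 9 lower, against 29.5%. The 9 became 3 without CBA/CaH lactation array 3 and 5 after quantile normalization or cyclic loess. In QSi5 31 were called higher, against 33% of genes, and 9 lower, against 32.7%. The median difference of the carriers was 0.38 in CBA/CaH and 0.44 in QSi5, where the median over all genes was 0.05 and 0.04. The 2 strains share no array in this comparison. All parental arrays entered the same fit, however, so each probe set has the same estimate of spread in both strains. Array medians were also higher at lactation in both. The calls are therefore not independent between the 2 strains. In both, 24 carriers were called higher (26.5% of genes were), which is 24 of the 29 in CBA/CaH and 24 of the 31 in QSi5. Another 8 were called lower in both (27% of genes were), and 0 moved in opposite directions. The 8 include Slc7a1 and Slc6a6, whose probe sets did not move together (below). With arrays set to equal medians, CBA/CaH had 18 carriers called higher and 9 called lower, and QSi5 had 20 and 12. That setting removed a median shift of 0.17 and 0.19 over all probe sets, and the share of higher calls among all called probe sets went from 61% to 45% and from 60.9% to 43.2%.

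**Figure D1:**
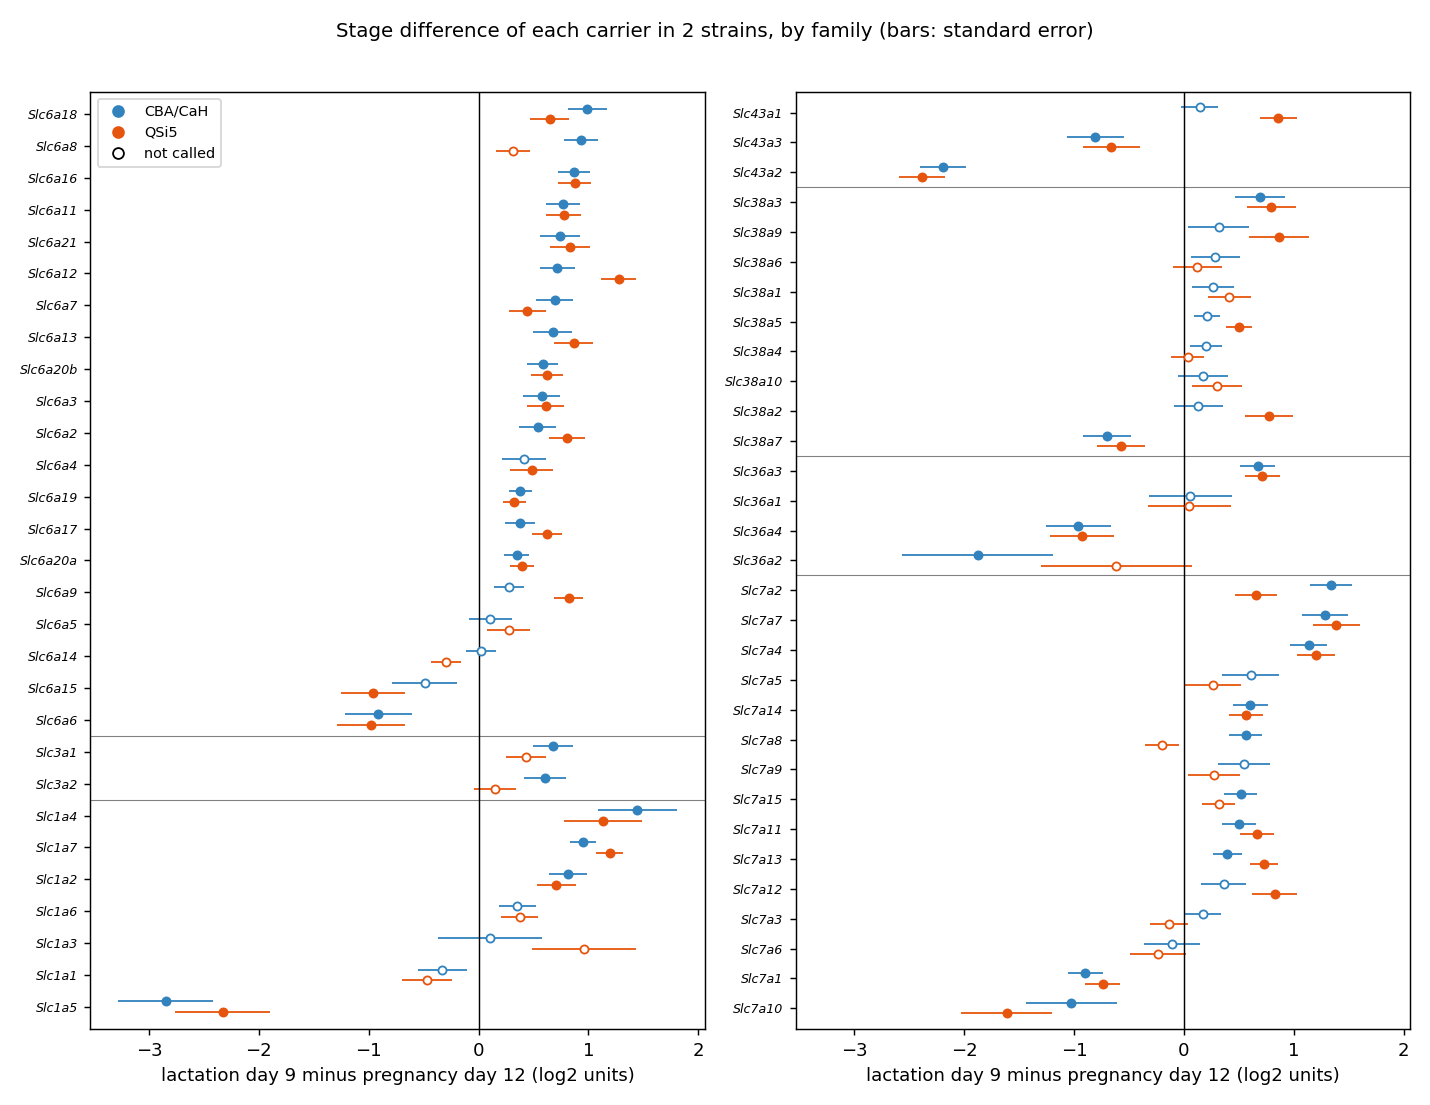
Difference between lactation day 9 and pregnancy day 12 of each of the 60 carriers in CBA/CaH (blue) and QSi5 (orange), in log2 units on the x axis, with 1 carrier per line, grouped by family; bars are standard errors and open circles were not called. Slc1a5 and Slc43a2 lie farthest to the left in both strains, and 14 to 15 of the 20 Slc6a members lie to the right as called. Of all genes 30.4% in CBA/CaH and 33% in QSi5 were called higher.

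Counts depended on how bright the probe set was, so carriers were set beside all genes of the same range of mean value over the parental arrays. Among carriers with a mean under 5, which is at or below the middle of an array, 13 of 24 were called higher in CBA/CaH (54.2%, against 49.6% of genes in that range) and 15 in QSi5 (62.5%, against 54.4%). The deposited values do not say which of these were detected. Among the 17 carriers with a mean of 7 or more, 6 were called higher in CBA/CaH (35.3%, against 9.62% of genes) and 5 lower (29.4%, against 54.5%). In QSi5 7 were called higher (41.2%, against 10.7%) and 4 lower (23.5%, against 57.9%). The median difference of these 17 was 0.29 and 0.30, while that of all genes in the range was −0.66 and −0.73. The median of the bright carriers thus had the opposite sign to that of bright genes, and dim carriers were called in shares near those of dim genes.

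**Figure D2:**
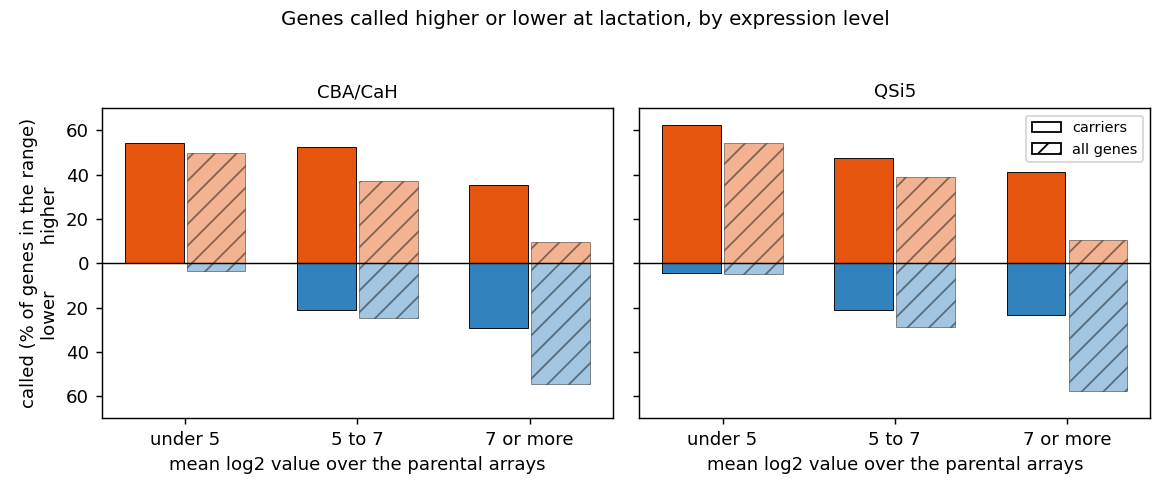
Share of carriers (plain bars) and of all genes (hatched bars) called higher (orange, upward) or lower (blue, downward) at lactation in CBA/CaH and QSi5, in 3 ranges of the mean log2 value. The 2 kinds of bar are close under 5, and at 7 or more 35.3% of carriers against 9.62% of genes were called higher in CBA/CaH.

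Carriers of large neutral essential amino acids did not move as a class. Slc43a2 (LAT4), which lets branched-chain amino acids, methionine and phenylalanine pass down their gradient, fell 4.58-fold in CBA/CaH and 5.21-fold in QSi5. Its values in CBA/CaH were 10.39, 10.67, 10.06, 9.92 and 10.47 in pregnancy and 8.17, 8.05 and 8.10 in lactation. In QSi5 they were 10.32, 10.09, 10.20, 11.13 and 10.59, then 8.05, 8.11 and 8.10. No lactation array of either strain, nor of AIL (7.87 to 8.63), reached the lowest pregnancy array. The differences were −2.19 ± 0.21 (SE, limma, adjusted p = 1.29e-06, n = 5 and 3) and −2.38 ± 0.21 (limma, adjusted p = 3.85e-07), or −1.55 and −1.65 after quantile normalization, with a call under each. A second probe set of Slc43a2 gave −2.68 and −3.33, while a dim one (mean 3.37) rose by 0.29 in QSi5 (limma, adjusted p = 0.045).

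LAT1, the main importer of leucine into growing cells, is the pair of the light chain Slc7a5 and the heavy chain Slc3a2. Slc7a5 read 10.10, 10.83, 9.96, 9.90 and 9.53 in CBA/CaH pregnancy and 10.98, 10.24 and 10.79 in lactation, and the groups overlapped. Its difference of 0.61 ± 0.26 missed the threshold (limma, adjusted p = 0.0591), as did that of 0.26 ± 0.26 in QSi5 (limma, adjusted p = 0.393). Slc3a2 read 9.39, 9.91, 9.51, 9.92 and 9.49 in CBA/CaH pregnancy and 10.80, 9.93 and 10.03 in lactation, so that every lactation array was higher. It rose by 0.61 ± 0.19 (limma, adjusted p = 0.014), but by 0.33 without CBA/CaH lactation array 1 (limma, adjusted p = 0.118), and it differed by 0.15 ± 0.19 in QSi5 (limma, adjusted p = 0.504). Both chains depended on the scaling of the arrays. After quantile normalization Slc7a5 was higher by 1.17 in CBA/CaH and 0.97 in QSi5, and Slc3a2 by 0.88 in QSi5, all called (limma, adjusted p of 0.000985, 0.00337 and 0.000312).

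The remaining members of this class were each called in 1 strain. Slc7a8 (LAT2), a light chain for neutral amino acids, rose by 0.56 ± 0.15 in CBA/CaH (limma, adjusted p = 0.00634; 0.39 and 0.0544 with equal array medians) and read −0.20 ± 0.15 in QSi5 (limma, adjusted p = 0.27). Slc43a1 (LAT3), a relative of Slc43a2 with the same kind of substrate, had a difference of 0.14 ± 0.17 in CBA/CaH and rose by 0.86 ± 0.17 in QSi5 (limma, adjusted p = 0.000532). Its group means lay between 4.57 and 5.43, near the middle of an array. Slc6a15, a carrier of branched-chain amino acids and proline, fell by 0.96 ± 0.29 in QSi5 (limma, adjusted p = 0.0106), where its mean went from 4.59 to 3.63, and differed by −0.49 ± 0.29 in CBA/CaH. No difference between the strains in these changes was called (see the interaction below).

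**Figure D3:**
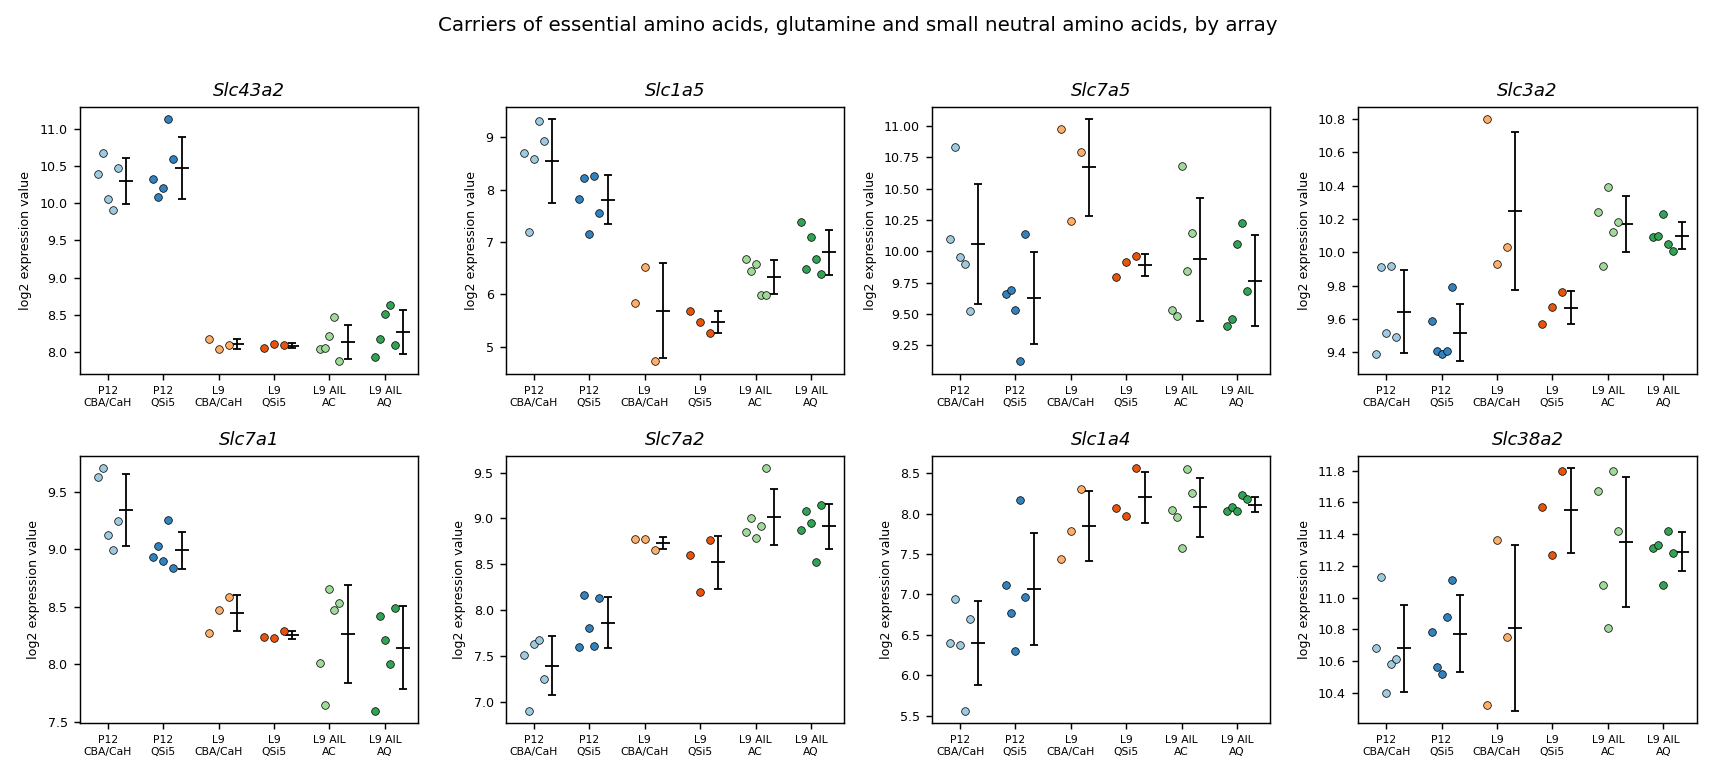
Log2 expression value (y axis) of 8 carriers on each array, by group (x axis: P12, pregnancy day 12; L9, lactation day 9), with group mean and SD as black marks. Slc43a2 and Slc1a5 are lower on every parental lactation array than on every pregnancy array of the same strain, Slc7a1 likewise, and Slc7a5 overlaps.

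Of the carriers of arginine and lysine, Slc7a2 was called higher at lactation by all 4 of its probe sets, while those of Slc7a1 did not move together. Slc7a1 (CAT1), the widely expressed member, read 9.63, 9.71, 9.12, 9.00 and 9.24 in CBA/CaH pregnancy and 8.27, 8.47 and 8.59 in lactation, without overlap. This brightest probe set gave −0.90 ± 0.16 (limma, adjusted p = 0.000335), and −0.74 ± 0.16 in QSi5 (limma, adjusted p = 0.00115), but was called in neither strain after quantile normalization (−0.25 and 0.04). Another bright one (mean 8.10) read 0.33 and −0.22 without a call, and a dim one (mean 3.93) was called higher by 0.84 and 0.77, so no direction is given. Slc7a2 (CAT2), an inducible member, read 7.51, 6.91, 7.63, 7.67 and 7.25 in CBA/CaH pregnancy and 8.77, 8.77 and 8.66 in lactation. It rose by 1.34 ± 0.19 (limma, adjusted p = 5.43e-05), and in QSi5 by 0.66 ± 0.19 (limma, adjusted p = 0.0087). The QSi5 call was lost with equal array medians (0.44; limma, adjusted p = 0.0805) and without lactation array 3 (0.54; limma, adjusted p = 0.0517). The other 3 probe sets of Slc7a2 were called higher in both strains, by 0.72 to 1.23. Slc7a3 (CAT3) was called in neither.

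The 2 exchangers of small neutral amino acids in the Slc1a family also parted. Slc1a5 (ASCT2), which trades glutamine for other small neutral amino acids, had the lowest difference of any carrier in CBA/CaH. It read 8.70, 7.19, 8.59, 9.31 and 8.92 in CBA/CaH pregnancy and 5.84, 6.52 and 4.72 in lactation. In QSi5 it read 7.83, 8.23, 7.15, 8.26 and 7.56, then 5.69, 5.48 and 5.26. Every lactation array was below every pregnancy array of its strain, by −2.85 ± 0.43 (limma, adjusted p = 8.24e-05) and −2.33 ± 0.43 on average (limma, adjusted p = 0.000328). Without the arrays that stand apart the differences were −2.70 and −2.56. CBA/CaH pregnancy array 2, the lowest of its group for Slc1a5, also had the lowest mean of the white adipocyte markers (8.69, group mean 10.52); whether the 2 are linked was not tested. Slc1a4 (ASCT1), which takes alanine, serine, cysteine and threonine, instead rose. It went from 6.41, 6.95, 6.37, 5.57 and 6.70 to 7.44, 7.78 and 8.31 in CBA/CaH, by 1.44 ± 0.36 (limma, adjusted p = 0.00361). In QSi5 it rose by 1.13 ± 0.36 (limma, adjusted p = 0.0133), and by 0.95 without lactation array 3 (limma, adjusted p = 0.066). The QSi5 groups overlapped through pregnancy array 4 at 8.17, the array that stands apart by its Gapdh value. One further probe set of Slc1a4 rose by 1.31 and 1.40, and another read 0.23 and −0.11 without a call.

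Most of the 9 sodium-coupled Slc38a carriers take glutamine, alanine or other small neutral amino acids. Among them CBA/CaH had 1 called higher and 1 lower, and QSi5 4 higher and 1 lower. Of all genes 30.4% and 33% were called higher, and 29.5% and 32.7% lower. Slc38a2 (SNAT2), a system A carrier that rises in amino acid shortage, read 10.68, 11.13, 10.40, 10.58 and 10.61 in CBA/CaH pregnancy and 10.32, 11.36 and 10.75 in lactation, which overlap. In QSi5 it read 10.78, 10.56, 10.52, 10.88 and 11.11, then 11.57, 11.27 and 11.80, and rose by 0.77 ± 0.22 (limma, adjusted p = 0.00739), or 0.55 with equal array medians (limma, adjusted p = 0.057). After quantile normalization it was called higher in CBA/CaH too, by 0.67. Slc38a3 (SNAT3), a carrier of glutamine and histidine, rose by 0.69 ± 0.23 and 0.80 ± 0.23 (limma, adjusted p of 0.0183 and 0.00714), and its second probe set rose by 1.00 and 1.20. With equal array medians the first values were 0.52 and 0.58 without a call (limma, adjusted p of 0.0957 and 0.0608), and in CBA/CaH the call was also lost without lactation array 2 (0.54) or 3 (0.63). Slc38a7, a glutamine carrier of the lysosome, had differences of −0.70 ± 0.22 and −0.58 ± 0.22 (limma, adjusted p of 0.0146 and 0.034). The QSi5 value rested on lactation array 2 (5.38, the others 6.45 and 6.57) and was −0.20 without it (limma, adjusted p = 0.319). Slc38a9, the lysosomal arginine sensor of mTORC1, was called higher in QSi5 by 0.87, as was 1 of its dimmer probe sets, while 3 others were called lower, so no direction is given. Slc38a1 and Slc38a4 were called in neither strain, and the dim Slc38a5 (group means 3.68 to 4.18) in QSi5 alone.

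Of the acidic carriers, Slc1a1 (EAAT3), which takes glutamate, aspartate and cysteine, averaged 6.57 and 6.70 in pregnancy and 6.24 and 6.23 in lactation, and was not called. Slc1a2 and Slc1a7, glutamate carriers best known from astrocytes and retina, rose by 0.81 and 0.95 in CBA/CaH and by 0.71 and 1.19 in QSi5. Slc1a7 did not overlap in either strain, with 5.33 to 5.84 in CBA/CaH pregnancy and 6.36 to 6.49 in lactation. Slc1a3 (GLAST) spread widely in pregnancy, from 4.44 to 6.92 in CBA/CaH, and was called in neither strain. Slc7a11 (xCT), the cystine importer that supplies glutathione synthesis, rose by 0.50 ± 0.15 and 0.67 ± 0.15 (limma, adjusted p of 0.013 and 0.00183) and without overlap. Its means stayed at 3.83 to 4.51, and the call was lost after quantile normalization (0.24 and 0.35).

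A light chain and an orphan member of Slc7a rose by more than 1 log2 unit in both strains, and they are described in AIL below. Slc7a7 (y+LAT1) pairs with Slc3a2 and releases arginine or lysine in exchange for neutral amino acids. It read 6.61, 7.02, 7.11, 7.25 and 6.68 in CBA/CaH pregnancy and 7.68, 8.64 and 8.33 in lactation. In QSi5 it read 7.12, 6.53, 7.08, 6.85 and 7.22, then 8.30, 8.27 and 8.47. It rose by 1.28 ± 0.21 (limma, adjusted p = 0.000174) and 1.39 ± 0.21 (limma, adjusted p = 6.47e-05). Slc7a7 is also a gene of macrophages, whose 10 markers averaged 7.51 and 7.66 in pregnancy and 6.51 and 6.75 in lactation. Of these markers 6 were lower and 1, Itgam, higher in CBA/CaH, and 5 and 1 in QSi5, and their part in the Slc7a7 values was not tested. Slc7a4, an orphan relative of the cationic carriers, read 7.66, 8.07, 7.71, 7.89 and 8.38 in CBA/CaH pregnancy and 8.85, 9.28 and 9.10 in lactation. It rose by 1.14 ± 0.17 and 1.20 ± 0.17 (limma, adjusted p of 7.96e-05 and 3.43e-05), and its other 2 probe sets rose too, by 0.87 to 1.78.

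The Slc6a family, which couples uptake to sodium and chloride, had 14 of 20 members called higher in CBA/CaH and 15 in QSi5, with 1 and 2 lower. Of all genes 30.4% and 33% were called higher, and 29.5% and 32.7% lower. Of genes with a mean under 5 over the parental arrays 49.6% and 54.4% were called higher. Many of these Slc6a members are carriers of neurotransmitters, or of kidney and brain, with means near or below the middle of an array. The betaine carrier Slc6a12, for example, went from means of 3.79 and 3.54 to 4.51 and 4.82. Slc6a14 (ATB0,+), a concentrative carrier of neutral and cationic amino acids, stayed between means of 3.43 and 3.77 in all 6 groups and was not called. The creatine carrier Slc6a8 read 7.79, 7.64, 7.52, 7.76 and 7.69 in CBA/CaH pregnancy and 8.56, 8.54 and 8.73 in lactation. It rose by 0.93 ± 0.16 (limma, adjusted p = 0.000192), and by 0.31 ± 0.16 in QSi5, where the call was missed (limma, adjusted p = 0.0955). Its second probe set was called higher in both strains, by 1.34 and 0.58. The glycine carrier Slc6a9 (GlyT1) rose by 0.82 ± 0.13 in QSi5 (limma, adjusted p = 0.000121) and read 0.28 ± 0.13 in CBA/CaH. The brightest probe set of the taurine carrier Slc6a6 gave −0.91 and −0.98, both called, while 2 dimmer ones were higher by 0.58 to 1.03. Quantile normalization ended both calls (−0.26 and −0.20), so no direction is given.

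Carriers lower at lactation included genes known from fat cells. Slc7a10 (Asc-1), an exchanger of small neutral amino acids and a surface protein of white adipocytes, read 6.39, 6.51, 6.15, 6.95 and 6.69 in QSi5 pregnancy and 4.86, 5.05 and 4.87 in lactation. It fell by 1.61 ± 0.42 (limma, adjusted p = 0.00381). In CBA/CaH it fell by 1.02 ± 0.42 (limma, adjusted p = 0.0491), with pregnancy arrays from 4.93 to 7.77 that overlapped lactation, and leaving out any of 6 single arrays ended this call. Without the arrays that stand apart the QSi5 value was −1.58 (limma, adjusted p = 0.0603). Slc36a2 (PAT2), a proton-coupled carrier of glycine, alanine and proline, is known as a surface protein of brown fat. It read 8.25, 6.30, 8.34, 7.33 and 10.89 in CBA/CaH pregnancy and 5.98, 6.48 and 6.58 in lactation, a fall by 1.88 ± 0.69 (limma, adjusted p = 0.0314). The array at 10.89 is the one with the highest mean of brown adipocyte markers (9.70, group mean 7.36). Without the 2 CBA/CaH arrays high in brown fat markers, and the others that stand apart, the difference was −0.95 (limma, adjusted p = 0.0563), and leaving out pregnancy array 1 or any lactation array also ended the call (−1.69 to −1.99). In QSi5 it was −0.62 ± 0.69 (limma, adjusted p = 0.454). White adipocyte markers averaged 10.52 and 10.29 in pregnancy and 9.03 and 9.25 in lactation. The part of white or brown fat in the Slc7a10 and Slc36a2 values was not tested. Slc36a4, a carrier of proline and tryptophan, had differences of −0.96 ± 0.29 and −0.93 ± 0.29 (limma, adjusted p of 0.0127 and 0.0134), which were −0.84 without CBA/CaH lactation array 3 and −0.73 without QSi5 lactation array 2, neither called. Slc36a1 (PAT1), its lysosomal relative, read 0.06 ± 0.37 and 0.05 ± 0.37. Slc43a3, which carries purine bases and not amino acids, had differences of −0.81 and −0.66 (limma, adjusted p of 0.0165 and 0.0388), and lost the call without any 1 of 2 arrays in CBA/CaH and 6 in QSi5.

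Grouped by substrate, the 8 carriers mainly of essential amino acids had 2 members called higher and 2 called lower in CBA/CaH. In QSi5 they had 2 and 3. The 22 carriers mainly of non-essential ones had 9 called higher and 4 called lower in CBA/CaH. In QSi5 they had 12 and 3. These shares of higher calls are 25.0% and 25.0% for the essential class and 40.9% and 54.5% for the non-essential class, against 48.3% and 51.7% of all carriers and 30.4% and 33% of genes. The 11 carriers of both kinds had 6 higher and 0 lower, then 5 and 0. Medians were 0.16 and −0.17 for essential, 0.27 and 0.47 for non-essential, and 0.38 and 0.32 for mixed substrates. The 9 carriers of amines, osmolytes or purines had 6 higher and 2 lower in each strain, and the 10 without an assigned substrate 6 higher and 1 lower. With probe sets of mean 5 or more alone, the essential class had 2 higher and 2 lower of 5 in CBA/CaH, and the non-essential class 6 and 4 of 16. In QSi5 these counts were 1 and 2, and 8 and 3. All these counts use the brightest probe set, also for Slc7a1, Slc6a6 and Slc38a9, for which no direction is given above. The classes were small and the difference between them was not tested.

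No carrier separated the 2 strains at an adjusted p under 0.05. At pregnancy 0 of 60 were called, where 1.22% of genes were (limma, lowest adjusted p = 0.346). An unadjusted p under 0.05 was found for 6 of the 60 and for 3795 of 45037 probe sets. At lactation 0 were called, where 0.346% of genes were (limma, lowest adjusted p = 0.329), and 7 carriers and 2344 probe sets had an unadjusted p under 0.05. With array weights 1 carrier was called at pregnancy, Slc7a1, lower in QSi5 by 0.49 (limma, adjusted p = 0.0321). At lactation both chains of LAT1 were higher in every CBA/CaH array than in any QSi5 array. The QSi5 arrays read 9.80, 9.92 and 9.96 for Slc7a5, with a difference of −0.78 ± 0.29 (limma, adjusted p = 0.699). For Slc3a2 they read 9.57, 9.67 and 9.76, with −0.58 ± 0.21 (limma, adjusted p = 0.683). Slc7a8 read 6.15, 6.43 and 6.52 in CBA/CaH and 5.81, 5.69 and 5.76 in QSi5 (−0.61 ± 0.17; limma, adjusted p = 0.329). Slc43a1 went the other way, with 4.79, 4.82 and 4.81 against 5.53, 5.33 and 5.43 (0.62 ± 0.19; limma, adjusted p = 0.443). These 4 carriers of large neutral amino acids did not overlap with 3 arrays a group, but none passed the test over all probe sets. The share of all genes without overlap was not counted, so no strain pattern is read from these 4. For the strain by stage interaction 0 carriers were called, where 0.0989% of genes were, and 6 carriers and 2422 probe sets had an unadjusted p under 0.05. The lowest adjusted p (limma, 0.464) was that of Slc7a8, whose stage change was lower in QSi5 by 0.76 ± 0.22.

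At lactation, 6 carriers were higher in AIL than in CBA/CaH (18% of genes were) and 13 lower (16.2%). Against QSi5 10 were higher (19.4% of genes) and 19 lower (18.5%). The 19 became 9 with equal array medians, 9 without QSi5 lactation array 2, which is high in B and plasma cell markers, and 11 without QSi5 lactation array 1. The 13 became 8 without CBA/CaH lactation array 3. The comparisons share the 10 AIL arrays, so values against each strain are given side by side. With equal array medians the share of higher calls over all probe sets went from 45.8% to 63.7% against CBA/CaH and from 43.7% to 64.7% against QSi5. The Gapdh 3′ minus 5′ value, a sign of RNA quality or labelling, was 0.54 to 0.80 in AIL and 1.12 to 2.02 in the parental lactation arrays, without overlap. It and the line therefore cannot be told apart, and with it as a covariate 0 carriers were higher and 0 lower against CBA/CaH, and 0 and 1 against QSi5. Among the 10 white adipocyte, 10 macrophage and 10 fibroblast markers, 8, 8 and 7 were higher in AIL than in CBA/CaH and 0 lower, and 6, 6 and 8 were higher than in QSi5. Of 9 B and plasma cell markers 2 were higher and 1 lower than in CBA/CaH, and 0 and 3 than in QSi5. Of 9 T and NK cell markers 0 were higher and 1 lower than in CBA/CaH, and 0 and 4 than in QSi5. Their part in the results was not tested.

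The carriers higher in AIL than in either strain were Slc7a4, Slc7a7, Slc1a3, Slc1a5, Slc36a2 and Slc36a4. Slc7a4 read 10.12, 10.39, 10.46, 10.17 and 10.08 in AC and 10.12, 10.10, 10.22, 10.19 and 10.25 in AQ, above all parental lactation arrays (8.85 to 9.28). The differences were 1.13 ± 0.11 and 1.16 ± 0.11 (limma, adjusted p of 8.97e-07 and 6.32e-07), and 0.90 and 0.94 with the Gapdh covariate, without a call. A second probe set was higher by 0.35 and 0.42 with a call, and another read −0.19 and −0.24 without one. Slc7a7 read 9.26, 9.11, 9.27, 9.06 and 9.37 in AC and 9.03, 8.73, 8.86, 9.12 and 9.71 in AQ, again above every parental array. It was higher by 0.93 ± 0.18 and 0.81 ± 0.18 (limma, adjusted p of 0.000819 and 0.00234), and its second probe set by 2.00 and 1.77. Quantile normalization ended the call against QSi5 (0.45; limma, adjusted p = 0.0705). The macrophage markers averaged 7.13 to 7.60 on AIL arrays and 6.40 to 6.99 on parental lactation arrays.

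Slc1a3, a glutamate and aspartate carrier, read 7.65, 7.05, 7.01, 7.59 and 7.71 in AC and 7.36, 7.39, 7.13, 6.78 and 7.37 in AQ. The CBA/CaH arrays (5.71, 6.59 and 5.93) lay below all of these, and 1 QSi5 array (6.79) lay level with the lowest. The differences were 1.23 ± 0.21 and 1.05 ± 0.21 (limma, adjusted p of 0.000287 and 0.000975). Of its other 5 probe sets 1 was called too, by 0.97 and 1.22, and 4 lay between −0.21 and 0.25. Slc1a5, which fell between pregnancy and lactation in the parental strains, read 5.99 to 6.67 in AC and 6.38 to 7.38 in AQ. It was higher than in CBA/CaH by 0.88 ± 0.27 (limma, adjusted p = 0.0204) and than in QSi5 by 1.09 ± 0.27 (limma, adjusted p = 0.00487). Without CBA/CaH lactation array 3 the first value was 0.39 (limma, adjusted p = 0.276), and with the Gapdh covariate both turned to −0.84 and −0.59. Slc36a2 was higher by 1.06 ± 0.26 and 0.87 ± 0.26 (limma, adjusted p of 0.00417 and 0.0135), and by 0.62 without QSi5 lactation array 3 (limma, adjusted p = 0.107). Slc36a4 was higher by 0.77 ± 0.20 and 0.84 ± 0.20 (limma, adjusted p of 0.00781 and 0.004), and by 0.65 without CBA/CaH lactation array 3 (limma, adjusted p = 0.0643). Both stand beside white adipocyte markers that averaged 9.92 and 10.14 in AC and AQ and 9.03 and 9.25 in the parental strains, and brown adipocyte markers that averaged 6.71 and 6.74 in AC and AQ and 6.57 and 6.85 in CBA/CaH and QSi5. Of the brown list, Cidea averaged 14.21 to 14.25 in all lactation groups. In AIL Cox8b was called higher than in CBA/CaH (0.93, limma, adjusted p = 0.0467). Ppargc1a was called lower than in QSi5 (−1.57, limma, adjusted p = 7.37e-06). No other call was made in this list between AIL and the parental strains. The part of the adipocyte markers was not tested.

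**Figure D4:**
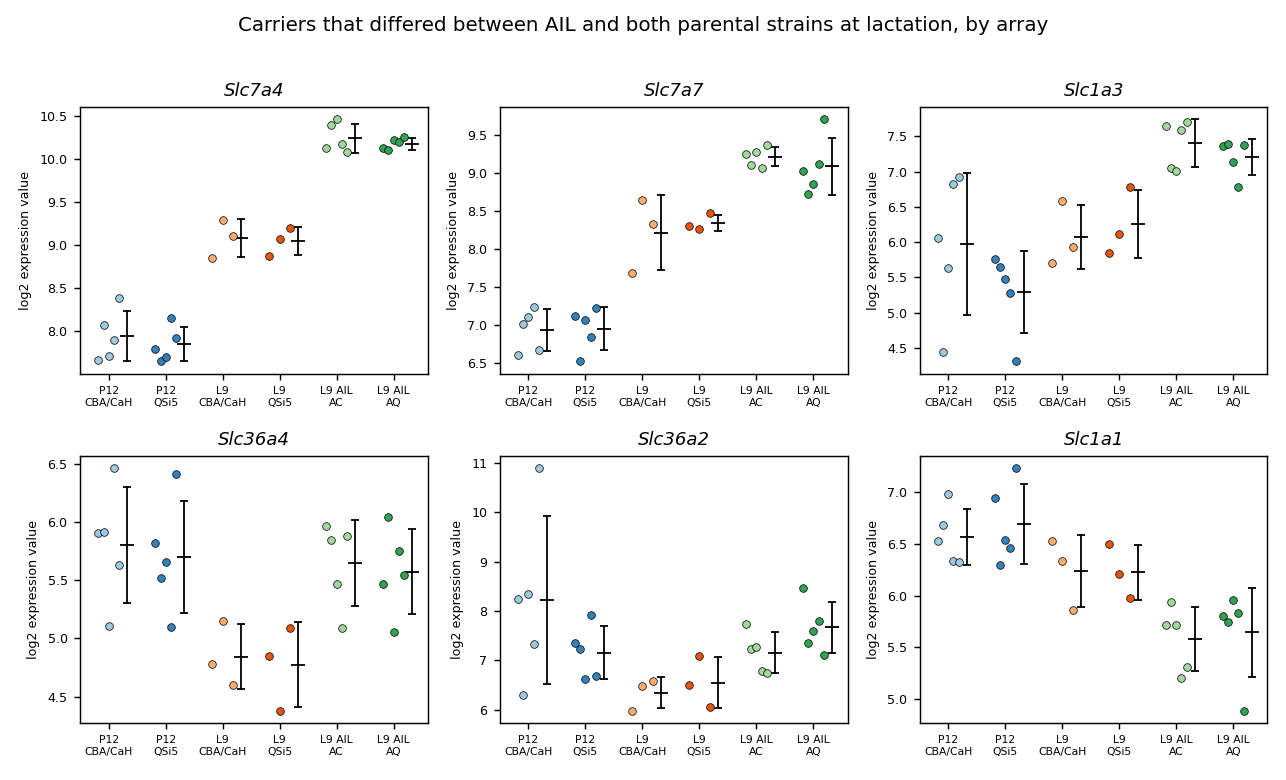
Log2 expression value (y axis) of 6 carriers on each array, by group (x axis: P12, pregnancy day 12; L9, lactation day 9; AC and AQ, codes of AIL mice), with group mean and SD as black marks. All 10 AIL arrays of Slc7a4 and Slc7a7 lie above all parental lactation arrays, and Slc1a1 is lower in AIL than in either parental mean.

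Slc6a members made up 7 of the 13 carriers lower in AIL than in CBA/CaH and 8 of the 19 lower than in QSi5. Of these 13 and 19, 6 and 11 had a mean under 5, which is 26.1% and 47.8% of the 23 carriers in that range, against 21.2% and 24.8% of genes. Slc1a1 was lower by 0.63 ± 0.20 in the first comparison and 0.61 ± 0.20 in the other (limma, adjusted p of 0.0247 and 0.025); leaving out lactation array 1 or 2 of the parental strain ended each call (−0.48 to −0.63). Slc38a1 (SNAT1), a glutamine carrier, gave −0.37 ± 0.11 and −0.57 ± 0.11 (limma, adjusted p of 0.0184 and 0.000834), the first −0.30 without CBA/CaH lactation array 3 (limma, adjusted p = 0.12). Other differences were to 1 strain. Slc7a5 was lower than in CBA/CaH by 0.82 ± 0.22 (limma, adjusted p = 0.00899) and read −0.04 against QSi5, with AIL arrays from 9.41 to 10.68. The first value was −0.66 without CBA/CaH lactation array 1 (limma, adjusted p = 0.0636) and −0.76 without array 3 (limma, adjusted p = 0.0526). Slc7a8 and Slc6a8 likewise gave −0.50 and −0.51 against CBA/CaH, both called (Slc7a8 −0.42 and not called without CBA/CaH lactation array 3), and read 0.11 and −0.20 against QSi5. For Slc6a8 the second probe set was higher than in QSi5, by 0.77. Slc3a2 was higher than in QSi5 by 0.46 ± 0.14 (limma, adjusted p = 0.017) and read −0.12 against CBA/CaH; the QSi5 call was lost after quantile normalization (0.13). Slc43a1 was lower than in QSi5 by 0.54 ± 0.14 (limma, adjusted p = 0.00652). For Slc1a4 the 3 probe sets parted: the brightest read 0.25 and −0.11 without a call, and the other 2 were higher in AIL by 1.27 and 1.80 against CBA/CaH and 1.02 and 1.79 against QSi5. Between AQ and AC 0 carriers and 0% of genes were called (limma), and 0 carriers and 1289 probe sets had an unadjusted p under 0.05.

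Genes that sense or use amino acids were set beside the carriers. In the list of the amino acid response and mTORC1 sensing, CBA/CaH had 8 of 21 measured genes higher at lactation and 7 lower, and QSi5 had 7 and 5. In CBA/CaH this was 38.1% higher and 33.3% lower, near the 30.4% and 29.5% of all genes, and in QSi5 33.3% and 23.8%, against 33% and 32.7%. Atf4 rose by 0.61 and 0.56, and its targets Asns, which makes asparagine, by 1.62 and 1.64 and Trib3 by 1.73 and 1.12. Chac1, a glutathione-degrading enzyme of the same response, rose by 3.43 and 2.66, with means from 5.87 and 5.74 to 9.30 and 8.39. At lactation Chac1 was lower in QSi5 than in CBA/CaH by 0.91 (limma, adjusted p = 0.0416). Cebpb, another factor of the response, was lower at lactation, with means of 10.75 and 10.65 in pregnancy and 8.46 and 7.99 in lactation. The GTPase Rragc, which recruits mTORC1 to the lysosome, was lower as well (−1.16 and −1.23). The 19 measured genes of non-essential amino acid synthesis had 5 higher and 7 lower members in CBA/CaH (26.3% and 36.8%), against 5 and 6 in QSi5 (26.3% and 31.6%). The arginase Arg2 rose by 2.27 and 2.04. The serine pathway enzyme Psat1 was lower (−1.96 and −1.31), as was Shmt2, which turns serine into glycine (−1.39 and −1.14). In AIL 11 of these 19 were higher than in CBA/CaH (57.9%, against 18% of genes) and 1 lower, and 9 (47.4%, against 19.4%) and 0 against QSi5, among them the aspartate aminotransferase Got1 by 1.71 and 2.09. This list averaged 8.05 to 8.58 in the lactation groups. Of genes with a mean of 7 or more over the lactation arrays, 36.7% and 38.8% were called higher in AIL.

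The 16 measured genes of essential amino acid breakdown had 5 higher and 6 lower members in CBA/CaH (31.2% and 37.5%), against 6 and 4 in QSi5 (37.5% and 25.0%), again near the shares of all genes. Bckdk, the kinase that holds back oxidation of branched-chain amino acids, was lower at lactation (−0.89 and −0.76). Bcat2, which removes the amino group of branched-chain amino acids, had means of 8.29 in CBA/CaH, 6.22 in QSi5 and 8.41 and 8.22 in AC and AQ at lactation, and QSi5 was lower than CBA/CaH by 2.07 ± 0.30 (limma, adjusted p = 0.00419). In AIL 9 of the 16 were higher (56.2%) and 1 lower than in CBA/CaH, and 10 (62.5%) and 0 than in QSi5. Of all genes 18% and 19.4% were higher in AIL, and of those with a mean of 7 or more 36.7% and 38.8%. The 18 measured amino acid carriers outside these families had 2 higher and 3 lower members in CBA/CaH (11.1% and 16.7%), against 1 and 4 in QSi5 (5.56% and 22.2%). Calls of either kind were rarer in this list than among all genes at the stage comparison. There, higher calls made up 30.4% for CBA/CaH and 33% for QSi5, while lower ones made up 29.5% and 32.7%. This gap was not tested. Slc25a12, the mitochondrial aspartate and glutamate carrier, was lower (−0.97 and −1.69), as was Slc15a4, a lysosomal carrier of peptides and histidine (−1.26 and −2.31).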

How the data were processed

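The authors deposited log2 expression values per probe set made with RMA, per the submitters' processing notes; the version, and whether all arrays were normalized together, are not given in the sources used here. The 64 Affymetrix control probe sets were left out. Symbols came from the platform annotation: 34945 probe sets had 1 symbol, 932 several and 9160 none, and 1 probe set that pairs a member with another symbol was not used. All tested probe sets entered limma 3.58.1 in R 4.3.3 (functions lmFit and eBayes), on the 16 parental arrays for stage and strain and on the 16 lactation arrays for AIL. The fits were tested on simulated data. No pair of arrays held the same values. Members and lists were chosen with earlier results of these data known. Named members were 21 carriers of main substrates, the 8 highest and 8 lowest called without overlap per stage comparison and up to 10 called per other comparison, with opposite probe sets beside them; Slc7a10, Slc36a2, Slc36a4, Slc38a7, Slc43a3 and Slc6a15 in the strain where the rule did not name them, list genes, Slc1a2 and Slc7a3 were chosen after their values were seen. Alternatives covered scaling, filter, weights, covariates, probe set choice and leaving out arrays. The number of arrays limits precision.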

Additional observations from a re-analysis of the deposited data

Results flagged for a closer look

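In 156 sets of 5 arrays (39 named members in 4 groups) the highest or lowest array was compared with its nearest neighbour, and in 5 sets the gap was large for the range of the group. Chance marks about 1 in 20 sets. Slc1a1 read 4.889 on AQ array 5, and 5.749 to 5.957 on the other AQ arrays. On the same array Slc7a8 read 5.602, against 5.912 to 5.978. Slc7a2 read 9.547 on AC array 5, against 8.783 to 9.002. Slc38a7 read 7.133 on QSi5 pregnancy array 5, which is high in muscle markers, against 6.567 to 6.684. Slc6a4, the serotonin carrier, read 5.486 on QSi5 pregnancy array 4, which stands apart by its Gapdh value and its B and plasma cell markers, against 4.382 to 4.62.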

How the results depend on the processing

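With probe sets of mean 5 or more alone, 16 carriers were higher at lactation in CBA/CaH and 16 in QSi5, and 7 and 8 were lower in AIL than in CBA/CaH and QSi5. Equal array medians gave 18 and 20 higher at lactation, and 9 lower in AIL than in QSi5. Quantile normalization and cyclic loess each left 5 carriers lower in CBA/CaH lactation, and cyclic loess 12 lower in AIL than in QSi5. Array weights gave 1 carrier called for strain at pregnancy. Without the arrays that stand apart 9 were lower in AIL than in QSi5. The Gapdh covariate left 0 higher and 0 lower against CBA/CaH, and 0 and 1 against QSi5. Leaving out single arrays gave 3 to 9 lower in CBA/CaH lactation (3 without lactation array 3). It gave 8 to 14 lower in AIL than in CBA/CaH (8 without CBA/CaH array 3) and 9 to 19 lower than in QSi5 (9 without QSi5 array 2, 11 without array 1). Fewer arrays lower power, and otherwise the cause was not tested. Replicate numbers did not pair the parental arrays: correlations of same-numbered deviations ran from −0.426 to 0.112 between the pregnancy groups and from −0.099 to −0.083 between the lactation groups. Between AC and AQ they ran from 0.007 to 0.316, and 4 of 5 exceeded 0.1. The median of the endothelial markers was 6.94 to 7.20 on AIL arrays 1 to 3 and 5.99 to 6.25 on arrays 4 and 5. This split was seen in both codes, and its cause was not tested. With the replicate block 3 carriers were lower in CBA/CaH lactation, and no other count of carriers moved by over 1.5 times. Signs turned with the mean of all probe sets for Slc7a1 in CBA/CaH (0.094), Slc6a6 (0.18) and Slc38a9 (−0.12) in QSi5, and Slc1a4 (0.90) and Slc6a8 (0.28) in AIL against QSi5. They turned with quantile normalization for Slc7a1 in QSi5 (0.038), and with the Gapdh covariate for Slc1a5 in AIL (−0.84 and −0.59) and Slc36a1os against QSi5 (0.10). Of the named members called, 15 of 25 in CBA/CaH and 19 of 26 in QSi5 kept the stage call whichever array was left out, and 12 and 11 kept it under all other alternatives. In AIL 7 of 13 against CBA/CaH and 9 of 16 against QSi5 kept the call when arrays were left out, and 0 and 1 under all other alternatives, the Gapdh covariate among them.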
